A study of Mus musculus with 2 samples.

Results

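Replication-dependent histone genes were compared between heart ventricles of Fendrr knockout (KO) and wild-type (WT) mouse embryos. The group was chosen by symbol alone and holds every row named Hist1h, Hist2h, Hist3h or Hist4h, which came to 67 of the 23276 rows measured. By the class letter in the symbol, 6 rows were H1, 18 were H2A, 18 were H2B, 12 were H3 and 13 were H4. By cluster, 53 were Hist1, on mouse chromosome 13, 10 were Hist2, on chromosome 3, 3 were Hist3, on chromosome 11, and 1 was Hist4, on chromosome 6.

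KO embryos lacked Fendrr, a long non-coding RNA gene, on both alleles after homologous recombination, and WT embryos carried the intact gene. Both came from embryonic stem cells by tetraploid complementation, in which the tetraploid host contributes mainly to extraembryonic tissue, on a C57BL/6 x 129SV background, and both were taken at E12.5 (embryonic day). From 4 pooled ventricles of each genotype, 1 strand-specific library was made after ribosomal RNA had been removed. Levels are in FPKM, fragments scaled to the length of the transcript and to the depth of the library. Genes of different length can then be set side by side, as far as the annotated length is that of the mRNA. Each library had a sequencing run of its own, and the bases of the WT run were called by hand, with a read-length filter that was possibly applied to it alone. Genotype and run therefore cannot be told apart. Neither genotype was repeated, so that words such as higher and lower below refer to this pair of libraries alone.

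Replication-dependent histone genes supply the histones that package newly made DNA, and cells transcribe them mainly in S phase. Their mRNAs carry no poly(A) tail and end in a conserved stem-loop, which the stem-loop binding protein SLBP holds during processing, translation and decay. Depletion of ribosomal RNA, in contrast to selection of poly(A) tails, keeps such mRNAs in the library. H2A, H2B, H3 and H4 form the core of the nucleosome, and H1 binds the DNA between cores.

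The stem-loop is the feature that sets these mRNAs apart, so its letters were read from GENCODE vM21 transcripts (GRCm38) as DNA. Of 51 genes with an annotated 3′ untranslated region, 46 held 6 paired letters starting with GG around a 4-letter loop starting with T, 25 to 62 bases after the coding end. Capitals below mark the stem and lower case the loop. The kinds were as follows.
H4 stem-loop of 7 genes, among them Hist1h4d, Hist1h4m and Hist4h4: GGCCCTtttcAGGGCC
H4 stem-loop of Hist1h4i and Hist2h4: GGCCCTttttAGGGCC
H4 stem-loop of Hist1h4b and Hist1h4j: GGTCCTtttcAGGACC
H4 stem-loop of Hist1h4a: GGCCCTtctcAGGGCC
Most frequent stem-loop of the other classes, 26 genes: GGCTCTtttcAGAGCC
Second stem-loop of the other classes, 6 genes, among them Hist1h2bb and Hist1h2bk: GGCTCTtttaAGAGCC
The stem-loop split by class. All 12 H4 genes with a match had a stem of the first 4 kinds, and all 34 matched genes of H1, H2A, H2B and H3 had the stem of the last pair or that same stem with another loop. The same split therefore holds for the levels given below. The 12 genes with an H4 stem summed to 1144.8 FPKM in KO and 2185.5 FPKM in WT. The 34 with the other stem summed to 2434.6 FPKM in KO and 3410.8 FPKM in WT.

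Promoters differed by class as well. RefSeq windows (GRCm38.p6) from 250 bases before to 50 bases after the start were matched to 61 of the 67 genes and searched on both strands. CCAAT, the letters of the CCAAT box, stood in 49 of 49 windows of H1, H2A, H2B and H3 genes but in 3 of 12 windows of H4 genes, against 37.4% of all 32851 mouse promoter windows in the table. TATAAA stood in 35 of 61, against 13.6% of all windows. ATTTGCAT, the octamer known from H2B promoters, stood in 7 H2A and 7 H2B windows, against 1.74% of all windows. TTTCGCGC or TTTGGCGC, letters of E2F sites, stood in 9 windows, against 0.813% of all windows. GGTCCG, searched only after the H4 windows had been seen, stood in 11 of 12 H4 windows and in 2 of the 49 others, against 8.25% of all windows. Each letter run was counted by itself, whether or not it overlapped another. Windows of neighbouring genes on opposite strands can overlap, as those of Hist1h2ah and Hist1h2bk do. The same site can then count for both genes, so these are counts of windows and not of separate sites. The 4 promoters below are those of the H4 gene with the lowest log2((KO + 1)/(WT + 1)) in FPKM, the most abundant H4 gene, the H2B gene with the lowest ratio and the H2B gene with the highest. They show the 250 bases before the start, with matches of all these letter runs in capitals.
Hist1h4m, chr13:21811496-21811745, plus strand: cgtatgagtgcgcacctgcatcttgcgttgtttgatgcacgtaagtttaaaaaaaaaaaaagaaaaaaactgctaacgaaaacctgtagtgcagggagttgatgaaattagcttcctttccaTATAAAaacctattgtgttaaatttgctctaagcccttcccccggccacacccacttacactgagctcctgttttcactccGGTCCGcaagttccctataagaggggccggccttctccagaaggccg
Hist1h4d, chr13:23581318-23581567, plus strand: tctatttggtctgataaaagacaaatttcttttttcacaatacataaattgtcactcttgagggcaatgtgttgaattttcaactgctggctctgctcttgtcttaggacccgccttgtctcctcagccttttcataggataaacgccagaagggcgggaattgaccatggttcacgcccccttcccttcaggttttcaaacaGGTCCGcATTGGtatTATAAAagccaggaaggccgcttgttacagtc
Hist1h2bk, chr13:22035571-22035820, plus strand: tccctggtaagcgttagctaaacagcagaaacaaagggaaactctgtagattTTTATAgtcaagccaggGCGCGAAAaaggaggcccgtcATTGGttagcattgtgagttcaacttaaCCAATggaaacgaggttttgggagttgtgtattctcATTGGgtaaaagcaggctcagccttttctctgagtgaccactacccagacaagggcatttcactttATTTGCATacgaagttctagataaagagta
Hist2h2bb, chr3:96269450-96269699, plus strand: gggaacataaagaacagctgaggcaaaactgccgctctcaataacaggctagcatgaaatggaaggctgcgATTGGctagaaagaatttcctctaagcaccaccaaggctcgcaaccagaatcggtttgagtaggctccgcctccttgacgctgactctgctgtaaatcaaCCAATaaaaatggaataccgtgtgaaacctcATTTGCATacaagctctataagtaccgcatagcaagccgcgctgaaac
Both H4 promoters hold GGTCCG shortly before the start, and both H2B promoters hold ATTTGCAT there. A match is a description of the letters and not a measured binding site.

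The histone mRNAs were lower in the KO library as a group. All 67 rows together summed to 6338.8 FPKM in KO and 8896.1 FPKM in WT, a KO to WT ratio of 0.713. They made up 1.89% of all FPKM in KO and 2.42% in WT. Of the 67 rows, 62 were lower and 5 were higher in KO than in WT, and 60 were lower under each of 5 other scalings of the libraries, where Hist2h2be and Hist2h3c2 changed sides. Among the 65 rows whose mean reached 1 FPKM, the median log2((KO + 1)/(WT + 1)) was -0.56, with a range of -1.60 to 0.33. The median of all 11349 genes that passed the same limit was -0.11, so that at least 50% of them were lower in KO too. Of the 65 histone genes, 59 were under that median. Relative to that median, the histone median was -0.45. A difference of 2-fold on this scale was reached by 11 of the 65 histone genes in the lower direction (16.9%), against 0.388% of all genes. Under the 5 other scalings it was reached by 3 or 4 histone genes, against 0.229% to 0.236% of all genes. It was reached by none of them in the higher direction, against 0.467% of all genes. Without the histone genes, 33 of the other 11284 genes were 2-fold lower. Histone mRNAs are short, and among 691 other genes with transcripts of 300 to 600 nt, 7 were 2-fold lower (1.01%) and the median was -0.13.

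**Figure D1:**
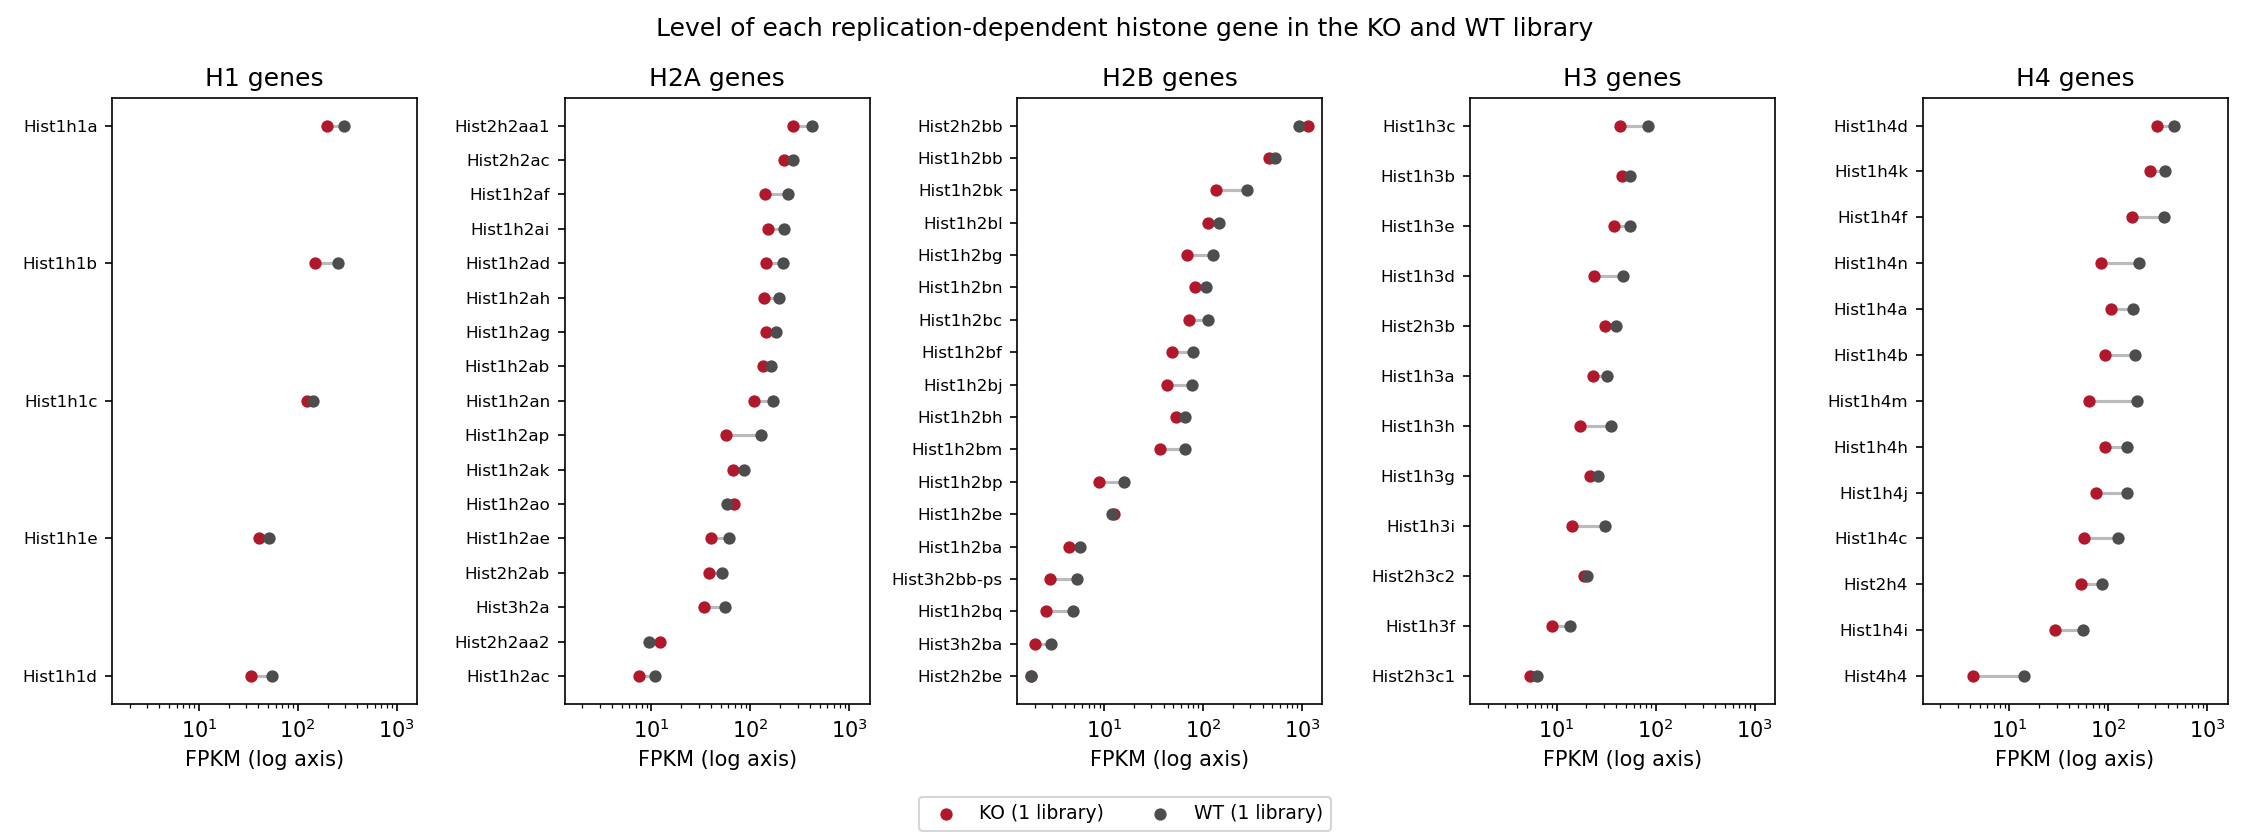
FPKM (log axis) of the 65 histone genes whose mean reached 1 FPKM in the KO library (red) and the WT library (grey), 1 library each, by class and sorted by mean level. The KO point lies left of the WT point for every H4 gene, and the widest H4 gaps are those of Hist1h4m (63.5 FPKM in KO and 195 FPKM in WT) and Hist4h4 (4.25 FPKM in KO and 13.9 FPKM in WT).

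The depth behind these values was read from low values of genes with 1 transcript of over 1000 nt. There, FPKM times transcript length should fall on whole multiples of what 1 read is worth. Within 0.05 reads of a whole number lay 69.0% of 422 such values in KO and 69.1% of 375 in WT, where an even spread would give 10%. The step was placed where the most values lay close to 1 read. Part of this share is therefore fixed by that choice, and the 10% does not allow for it. The steps correspond to 16400000 fragments in KO and 13100000 in WT, a ratio of 1.26. With GENCODE lengths, the histone rows held about 65701 reads in KO and 75469 in WT. Most histone transcripts are shorter than 1000 nt, and whether the same step holds for them was not tested. Intervals given below for single ratios are exact Clopper-Pearson 95% intervals on such read estimates. They cover counting error only, since PCR copies are not independent molecules and the spread between embryos was not measured. They also leave out how the reads of genes that share windows were divided between them. For short transcripts they would be too narrow if the read estimates are too high.

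The genotype could not be checked on Fendrr itself, whose row (1110050K14Rik, an older symbol) had 0 FPKM in KO and 0 FPKM in WT. Markers of the ventricular myocyte were high in both libraries, with a sum over 10 genes of 21166.3 FPKM in KO and 20895.1 FPKM in WT. Summed markers of the other cell types listed were higher in KO, though not each gene. The sums were 238 FPKM in KO and 231 FPKM in WT for 8 endothelial genes, 76.7 FPKM in KO and 65.5 FPKM in WT for 5 epicardial genes, and 599 FPKM in KO and 495 FPKM in WT for 8 cushion mesenchyme and fibroblast genes. For 14 erythroid genes they were 5582.7 FPKM in KO and 5161.2 FPKM in WT, a sum led by the globins Hba-a1 (2122.4 FPKM in KO and 1582.7 FPKM in WT) and Hbb-y (2892.9 FPKM in KO and 2866.7 FPKM in WT). Of these 14, 10 were lower in KO, among them Tfrc at 15.5 FPKM in KO and 29.2 FPKM in WT. The globin Hba-a2 was lower as well, at 0 FPKM in KO and 139 FPKM in WT. The median log2 ratio of the 10 expressed erythroid genes was -0.28. For 6 leukocyte genes the sums were 70.7 FPKM in KO and 48.9 FPKM in WT. For 8 liver and yolk sac genes they were 23.3 FPKM in KO and 0.806 FPKM in WT, with Alb at 0 in both. Their part in the histone values was not tested. In RNA of a whole tissue, fewer cells in S phase and less histone mRNA per cell cannot be told apart.

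The linker histone H1 genes were lower in KO as a class. Their 6 rows summed to 546 FPKM in KO and 799 FPKM in WT, a log2 ratio of the sums of -0.55, and all 6 were lower in KO. None of the 5 whose mean reached 1 FPKM was 2-fold lower. Hist1h1a, the most abundant, was at 197 FPKM in KO and 291 FPKM in WT. Hist1h1b had the lowest log2 ratio of the class, -0.78, with 150 FPKM in KO and 257 FPKM in WT (ratio 0.582, interval 0.548 to 0.619). Hist1h1c had the highest, -0.22, with 124 FPKM in KO and 144 FPKM in WT. These 3 genes kept the same order of level in both libraries, while the gaps differed in width. Hist1h1d (log2 ratio -0.69) and Hist1h1e (-0.31) lay between them. Hist1h1t, known as the linker histone of the testis, was at 0.667 FPKM in KO and 1.00 FPKM in WT, from about 10 reads in KO and 12 in WT, and a difference was not detectable at this depth.

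The H2A genes, whose products pair with H2B, summed to 1780.1 FPKM in KO and 2523.1 FPKM in WT over 18 rows, a log2 ratio of -0.50. Of the 18, 15 were lower and 3 were higher in KO. The most abundant were Hist2h2aa1, at 272 FPKM in KO and 424 FPKM in WT, and Hist2h2ac, at 221 FPKM in KO and 269 FPKM in WT. Both were lower in KO, although by different amounts (log2 ratios -0.64 and -0.28). Hist1h2af was at 142 FPKM in KO and 238 FPKM in WT (log2 ratio -0.74). Hist1h2ap alone in the class was 2-fold lower, though not after quantile normalization, with 56.4 FPKM in KO and 129 FPKM in WT (log2 ratio -1.17). Only 7.80% of the 100-base windows of its transcript occurred in no other gene, so that reads of this length could be assigned to its neighbours. Its copy Hist1h2ao went the other way, at 68.9 FPKM in KO and 57.6 FPKM in WT. The sum of this pair, which does not depend on how reads were divided between its members, was 125 FPKM in KO and 186 FPKM in WT (log2 ratio -0.57), although each shares windows with 17 genes. A similar case was Hist2h2aa2, which had the highest ratio of the class, 12.2 FPKM in KO and 9.55 FPKM in WT (interval of the ratio 0.931 to 1.77), and not a single unique window. With its copy Hist2h2aa1 it summed to 284 FPKM in KO and 433 FPKM in WT. Hist1h2aa was listed at 0.00011 FPKM in KO, under 1 read, and at 0 in WT.

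The H2B genes were the class whose KO and WT sums were nearest to each other as a ratio. Their 18 rows summed to 2310.4 FPKM in KO and 2566.3 FPKM in WT, a log2 ratio of -0.15. Hist2h2bb weighed most in this value. It was the most abundant histone gene of both libraries and was higher in KO, with 1162.2 FPKM in KO and 933 FPKM in WT (ratio 1.25, interval 1.20 to 1.29, from about 7281 reads in KO and 4652 in WT). Of its windows, 54.6% were unique. The other 17 H2B genes summed to 1148.2 FPKM in KO and 1633.4 FPKM in WT, a log2 ratio of -0.51, which is near that of H2A. Of the 18 genes, 16 were lower in KO, or 15 under the other scalings, without Hist2h2be. Hist1h2bb, the next in level, was at 459.5 FPKM in KO and 529.6 FPKM in WT (log2 ratio -0.20). Hist1h2bk was 2-fold lower, though not under the other scalings, with 136 FPKM in KO and 278 FPKM in WT (log2 ratio -1.03, interval of the ratio 0.452 to 0.528). Only 29.2% of its windows were unique, and it shares windows with 13 genes. Hist1h2bg was at 69.6 FPKM in KO and 128 FPKM in WT (log2 ratio -0.87). Hist1h2be, at 12.51 FPKM in KO and 12.07 FPKM in WT, and Hist2h2be, at 1.83 FPKM in KO and 1.84 FPKM in WT, lay above the median of all genes. Hist2h2be held about 79 reads in KO and 63 in WT, and the interval of its ratio was 0.708 to 1.41.

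The H3 genes had the lowest summed level of the core histones in both libraries, 292 FPKM in KO and 444.5 FPKM in WT over 12 rows. The log2 ratio of the sums was -0.60, and all 12 genes were lower in KO, or 11 under the other scalings, without Hist2h3c2. Hist1h3c, the most abundant, was at 43.7 FPKM in KO and 83.2 FPKM in WT (log2 ratio -0.91, interval of the ratio 0.466 to 0.593). Hist1h3b was at 46.0 FPKM in KO and 54.9 FPKM in WT, and Hist1h3e at 38.3 FPKM in KO and 55.3 FPKM in WT. Hist1h3b thus led the class in KO and Hist1h3c in WT. Hist1h3i and Hist1h3h were 2-fold lower, but neither under any of the other scalings or with a pseudocount of 5. Hist1h3i was at 14.3 FPKM in KO and 30.5 FPKM in WT, from about 97 reads in KO and 164 in WT. Hist1h3h was at 17.1 FPKM in KO and 35.4 FPKM in WT, from about 116 reads in KO and 190 in WT. These genes share most of their sequence with other H3 genes (31.4% and 8.0% unique windows), and together they were at 31.4 FPKM in KO and 65.9 FPKM in WT. Hist2h3c2 had the highest ratio, 18.7 FPKM in KO and 20.2 FPKM in WT (log2 ratio -0.11, interval of the ratio 0.784 to 1.09). The 3 Hist2 H3 genes, which are copies of each other, summed to 54.7 FPKM in KO and 66.2 FPKM in WT.

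The H4 genes had the lowest ratio of the 5 classes. Their 13 rows summed to 1410.5 FPKM in KO and 2563.2 FPKM in WT, a ratio of 0.550 and a log2 ratio of -0.86. All 13 were lower in KO, under the other scalings too, with log2 ratios of -1.60 to -0.51 and a median of -1.01. Of the 13, 7 were 2-fold lower (53.8%), beside 4 of the 52 expressed genes of the other classes. Under the 5 other scalings 3 of these H4 genes, Hist1h4m, Hist4h4 and Hist1h4n, stayed 2-fold lower, and the other 4 did not. The 13 genes encode 1 and the same protein in GENCODE vM21, so that their products cannot be told apart, but their untranslated regions differ and 10 of them had at least 50% unique windows. Their share of the histone sum was 22.3% in KO and 28.8% in WT, while that of H2B was 36.4% in KO and 28.8% in WT. The shares of H1, H2A and H3 were 8.61%, 28.1% and 4.61% in KO, and 8.98%, 28.4% and 5.0% in WT.

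Abundant and scarce H4 genes were both lower in KO. Hist1h4d, the most abundant, was at 312.5 FPKM in KO and 462 FPKM in WT (log2 ratio -0.56). It was covered by about 5848 reads in KO and 6882 in WT, all of its windows were unique, and the interval of its ratio was 0.653 to 0.70. Hist1h4k had the highest ratio of the class, at 266 FPKM in KO and 378 FPKM in WT (log2 ratio -0.51). Hist1h4f was 2-fold lower, at 173 FPKM in KO and 368 FPKM in WT (log2 ratio -1.08, interval of the ratio 0.437 to 0.508), with 81.8% unique windows. Hist1h4c was at 57.3 FPKM in KO and 124.5 FPKM in WT (log2 ratio -1.11). Hist1h4j was at 75.05 FPKM in KO and 155.0 FPKM in WT (-1.04), and Hist1h4b at 92.8 FPKM in KO and 188 FPKM in WT (-1.01). These 4 genes had ratios of 0.460 to 0.493 and WT levels of 124.5 to 368 FPKM. They are set side by side because they passed the 2-fold limit, which in part fixes how close their ratios lie. Hist1h4m had the lowest log2 ratio of all histone genes, -1.60, with 63.5 FPKM in KO and 195 FPKM in WT (ratio 0.326, interval 0.290 to 0.365). Its copy Hist1h4n was at 84.7 FPKM in KO and 204 FPKM in WT (log2 ratio -1.25). Few of their windows were unique (11.9% and 19.3%). The sum of the pair was 148 FPKM in KO and 399 FPKM in WT (log2 ratio -1.43), between those of its members, although each shares windows with 8 genes. The remaining Hist1 H4 genes, Hist1h4a, Hist1h4h and Hist1h4i, had log2 ratios of -0.92 to -0.73.

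**Figure D2:**
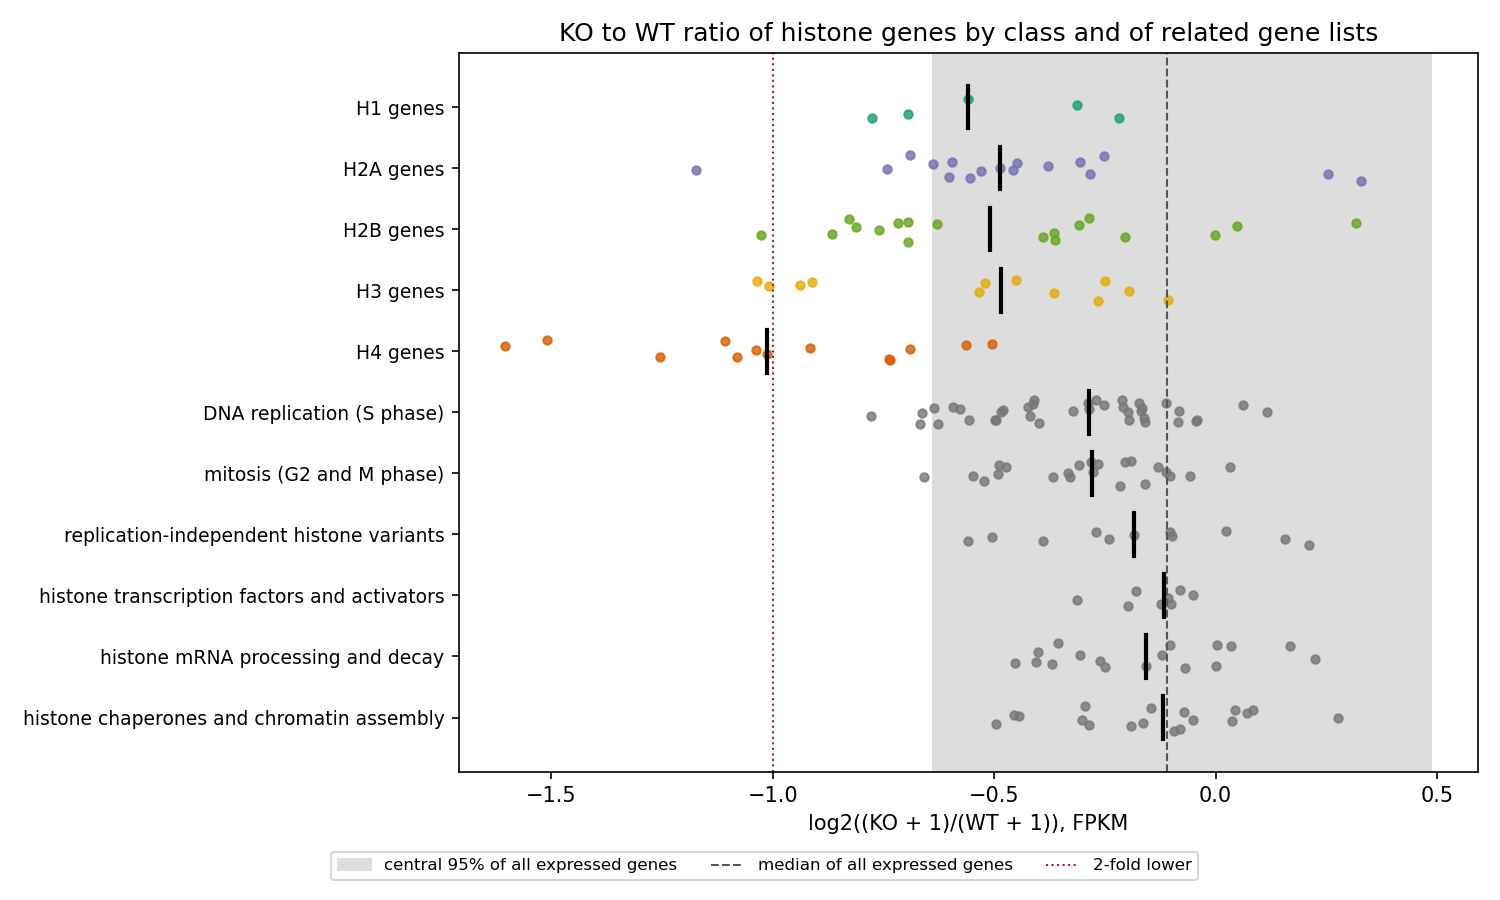
log2((KO + 1)/(WT + 1)) in FPKM for each expressed gene (points) of the 5 histone classes and of 6 related lists, with the list median (black bar), the central 95% of all 11349 expressed genes (grey band, -0.64 to 0.49), their median of -0.11 (dashed line) and the 2-fold limit (dotted line). As deposited, the H4 median lies at -1.01, left of the 2-fold limit. Hist1h4b, the gene at that median, was at -0.888 to -0.830 under the 5 other scalings, within the limit. The medians of the other classes lie between -0.56 and -0.49 and those of the related lists between -0.29 and -0.12.

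By cluster, the Hist1 genes summed to 4481.1 FPKM in KO and 6976.8 FPKM in WT, a log2 ratio of -0.64, and 50 of the 53 were lower in KO. Hist1 held 10 of the 11 genes that were 2-fold lower as deposited, and 51 of the 65 expressed histone genes. The Hist2 genes summed to 1814.5 FPKM in KO and 1841.5 FPKM in WT, a log2 ratio of -0.02 that became 0.10 to 0.11 under the other scalings. Hist2h2bb weighed most in that sum too. Without it, the other 9 Hist2 genes summed to 652 FPKM in KO and 909 FPKM in WT, a log2 ratio of -0.48. H4 was the lowest class within Hist1 too, with log2 ratios of the sums of -0.51 for H2A, -0.51 for H2B, -0.55 for H1, -0.67 for H3 and -0.86 for H4. By the median of the Hist1 genes H4 was lowest again (-1.01), but the other classes changed order. H2B (-0.66) then lay below H1 (-0.56), H3 (-0.53) and H2A (-0.51). Within Hist2, the only H4 gene, Hist2h4, was at 52.8 FPKM in KO and 85.9 FPKM in WT, a log2 ratio of the levels of -0.70. The H2A genes of Hist2 had a log2 ratio of the sums of -0.47 and its H3 genes of -0.28.

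The small clusters were also lower in KO. The 3 Hist3 rows summed to 38.9 FPKM in KO and 63.9 FPKM in WT, a log2 ratio of -0.71. Hist3h2a made up most of it, at 34.1 FPKM in KO and 55.7 FPKM in WT (interval of the ratio 0.568 to 0.661). Hist3h2ba was at 1.99 FPKM in KO and 2.92 FPKM in WT, and Hist3h2bb-ps, a pseudogene by its symbol, at 2.83 FPKM in KO and 5.31 FPKM in WT. Hist3h2ba had about 20 reads in KO and 23 in WT, and with an interval of its ratio of 0.361 to 1.32 a difference was not detectable at this depth. Hist4h4, the single row of its cluster, was at 4.25 FPKM in KO and 13.9 FPKM in WT, from about 200 reads in KO and 523 in WT. Its ratio of 0.305 was the lowest of the 65 expressed genes (interval 0.257 to 0.359), its windows were 95.5% unique, and its transcript of 2863 nt is much longer than those of most H4 genes. The pseudocount brings its log2 ratio to -1.51, against -1.72 without it.

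**Figure D3:**
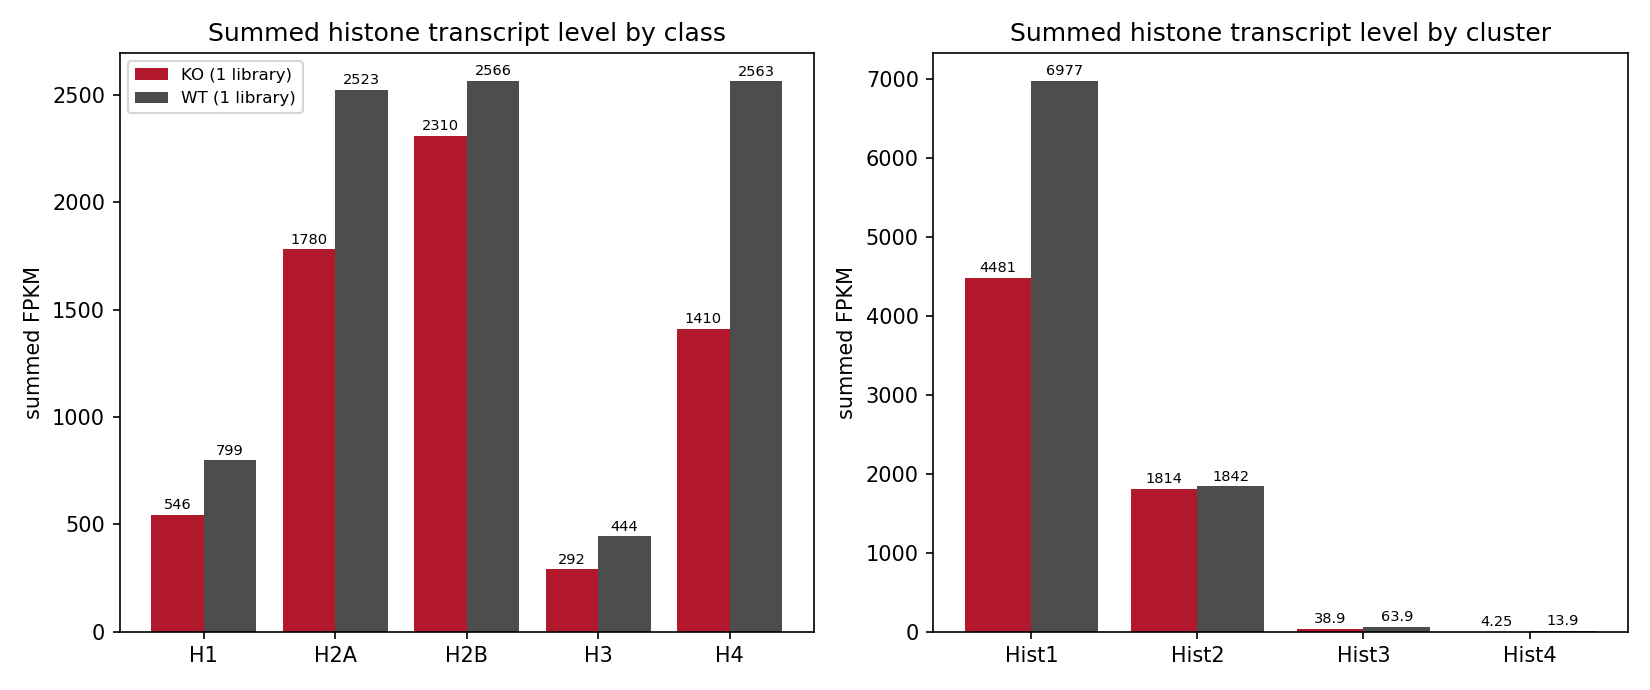
Summed FPKM of the histone genes in the KO library (red) and the WT library (grey), 1 library each, by class (left) and by cluster (right). Among the classes the gap is widest for H4, 1410.5 FPKM in KO and 2563.2 FPKM in WT, and among the clusters it is widest for Hist1, 4481.1 FPKM in KO and 6976.8 FPKM in WT.

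Reads of near-identical genes can be divided between copies in more than 1 way, so the genes were split by uniqueness. The 43 rows with at least 50% unique windows summed to 4087.6 FPKM in KO and 5413.1 FPKM in WT. Of the 41 expressed ones, 5 were 2-fold lower (12.2%), against 0.388% of all genes. The 24 rows under that limit summed to 2251.2 FPKM in KO and 3483.1 FPKM in WT, and 6 of them were 2-fold lower (25%). Median log2 ratios were -0.63 in the more unique rows and -0.52 in the others. For H4, the 10 more unique genes summed to 996.5 FPKM in KO and 1786.8 FPKM in WT, a log2 ratio of -0.84. The genes were also split by length. The 28 rows of up to 500 nt, with Hist2h2bb among them, had a log2 ratio of the sums of -0.44. Of the 27 expressed ones, 8 were 2-fold lower (29.6%). The 39 longer rows had -0.55, and 3 of the 38 expressed ones were 2-fold lower (7.89%), again beside 0.388% of all genes. Medians had the other order, -0.60 in the shorter rows and -0.56 in the longer ones.

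**Figure D4:**
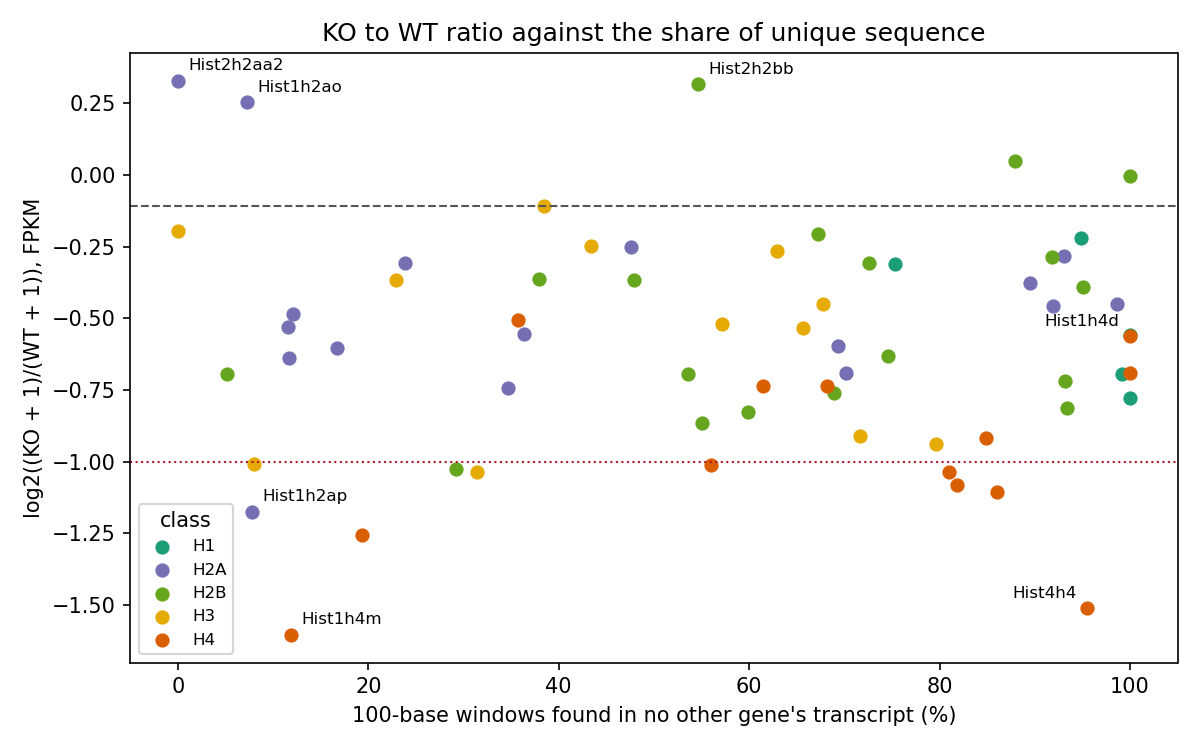
log2((KO + 1)/(WT + 1)) in FPKM of each expressed histone gene against the percentage of 100-base windows of its transcripts that occur in no other gene, coloured by class, with the median of all genes (dashed, -0.11) and the 2-fold limit (dotted). H4 genes lie low on both sides, from Hist1h4m with 11.9% unique windows to Hist4h4 with 95.5%.

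Many H2A and H2B genes lie head to head and share the stretch between their starts. GENCODE places gave 13 such neighbours on opposite strands, 12 of them an H2A gene with an H2B gene, with 173 to 660 bases between starts. Both genes were lower in KO in 11 of the 13, among them Hist2h2ac with Hist2h2be, which was not lower under the other scalings. With 62 of all 67 histone rows lower in KO, most pairs of any kind would have both genes lower. The count is therefore not a trait of head-to-head pairs. Hist1h2ak and Hist1h2bn, with 296 bases between starts, had nearly the same log2 ratio, -0.38 and -0.36. Hist3h2a and Hist3h2bb-ps, with 173 bases, had -0.69 and -0.72. Hist1h2ah and Hist1h2bk, with 302 bases, differed more, at -0.49 and -1.03. Both share most of their windows with other genes (12.1% and 29.2% unique). The pairs with a gene that was not lower were Hist1h2ao with Hist1h2bq and Hist1h2aa with Hist1h2ba, and Hist1h2ao shares most of its sequence with its copy.

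The presence of CCAAT, described above, followed the classes. The 52 genes with CCAAT had a median log2 ratio of -0.52. The 9 without it, all of them H4, had -1.04. Within H4, the 3 genes with CCAAT (Hist1h4a, Hist1h4c and Hist1h4d) summed to 476 FPKM in KO and 764.5 FPKM in WT, and the 9 without it to 881.5 FPKM in KO and 1712.8 FPKM in WT. The log2 ratios of these sums were -0.68 and -0.96. Hist1h4d held most of the sum with CCAAT, at 312.5 FPKM in KO and 462 FPKM in WT. Hist1h4c, with CCAAT, was 2-fold lower, and Hist1h4k, without it, had the highest log2 ratio of the H4 genes (-0.51).

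Genes that act with the replication-dependent histones were compared as lists. None of the 114 expressed genes in 6 lists was 2-fold apart, which is near the share of all genes, 0.388% lower and 0.467% higher. Of 11 replication-independent histone variants, most of which are made from polyadenylated mRNAs, 6 were under the median of all genes and 5 over it, with a list median of -0.18. H3f3a, which encodes the variant H3.3, was at 1161.3 FPKM in KO and 1142.7 FPKM in WT, about level. H2afz, which encodes H2A.Z, was at 195 FPKM in KO and 288 FPKM in WT (log2 ratio -0.56). Cenpa, the H3 variant of centromeres, was at 21.8 FPKM in KO and 31.3 FPKM in WT. H1f0, a linker variant of differentiated cells, was higher in KO, at 70.5 FPKM in KO and 60.8 FPKM in WT.

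Regulators of histone genes had list medians near that of the whole table. Of 8 transcription factors and activators, 4 were below it and 4 above, with a list median of -0.12. Npat, the coactivator of histone gene clusters, was at 6.15 FPKM in KO and 6.56 FPKM in WT, and Casp8ap2, which is needed for histone gene expression, at 14.5 FPKM in KO and 15.0 FPKM in WT. Cdk2, the S phase kinase that acts on NPAT, was at 18.1 FPKM in KO and 22.7 FPKM in WT. Of 17 expressed genes of histone mRNA processing and decay, 10 were below the median and 7 above, with a list median of -0.16. Slbp, whose product binds the stem-loops shown above, was at 42.5 FPKM in KO and 45.7 FPKM in WT (log2 ratio -0.10). Of the subunits of the U7 particle that cuts histone pre-mRNA, Lsm10 was at 6.34 FPKM in KO and 9.05 FPKM in WT, and Lsm11 at 2.76 FPKM in KO and 3.20 FPKM in WT. Fip1l1, a polyadenylation factor, had the highest ratio of the list, at 51.0 FPKM in KO and 43.5 FPKM in WT. Of 18 chaperone and chromatin assembly genes, 9 were below the median and 9 above, with a list median of -0.12. Nasp, a chaperone of H3 and H4, was at 94.4 FPKM in KO and 100.7 FPKM in WT. Asf1b, which hands over H3 and H4, was at 8.25 FPKM in KO and 9.56 FPKM in WT. The subunits of the assembly factor CAF-1, Chaf1a (8.27 FPKM in KO and 7.99 FPKM in WT) and Chaf1b (14.1 FPKM in KO and 17.5 FPKM in WT), lay on either side of the median.

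Cell cycle genes were mostly lower in KO too, by less than the histones. Of 38 DNA replication genes, 32 were below it and 6 above, with a list median of -0.29 and a range of -0.78 to 0.12. Pcna, the clamp of DNA polymerases, had 120.0 FPKM in KO and 177 FPKM in WT (log2 ratio -0.56). Rrm1, a subunit of ribonucleotide reductase, was at 85.2 FPKM in KO and 87.8 FPKM in WT. Rfc5, a clamp loader subunit, had the lowest ratio of the list, at 14.9 FPKM in KO and 26.3 FPKM in WT. Of 22 mitotic genes, 19 were below the median and 3 above, with a list median of -0.28. Top2a, the mitotic topoisomerase, was at 137 FPKM in KO and 159 FPKM in WT, and Ube2c, an enzyme of the anaphase-promoting complex, at 46.8 FPKM in KO and 45.7 FPKM in WT. The part of these genes, as a measure of cells in S phase, in the histone values was not tested.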

How the data were processed

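RNA of 4 pooled heart ventricles per genotype at E12.5 gave 1 KO and 1 WT library, read for 100 bases from 1 end. The authors deposited 1 FPKM value per gene symbol and library, made with Cufflinks 2.0.2, TopHat2 2.0.6 and Bowtie2 2.0.2 and the build mm9, as the submitters' processing notes list them. The annotation and options, and with them the handling of reads that match several genes, are not given in the sources used here.

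Histone rows were taken by symbol. Ratios were log2((KO + 1)/(WT + 1)) for genes that averaged at least 1 FPKM over both libraries, a scale that understates differences of low genes, and a 2-fold difference was counted as called. Class and cluster ratios were log2 ratios of FPKM sums without a pseudocount. With 1 library per genotype no test was possible and no p-value was computed. Members and lists were chosen with earlier results of these data known.

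Lengths, stem-loops, neighbours and unique 100-base windows came from GENCODE vM21 and promoters from RefSeq, both on GRCm38, a build other than that of the values. Where a gene has several transcripts the median length was used, and intervals were given only for genes with 1 transcript. Read depth was estimated from transcripts of over 1000 nt as 16400000 fragments in KO and 13100000 in WT.

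Named histone genes were, per class, the 3 highest in mean level, the 2 lowest and the 1 highest in log2 ratio, all 2-fold apart, all of clusters with 3 or fewer rows, and any listed at 0 in 1 library only. From the other lists the rule took the 2 highest in mean, the 2 lowest and the 1 highest in ratio, and 9 regulators. Not all of these are printed. Copies, head-to-head pairs, Hist1h1e, Hist1h1t, Hist1h2be, Hist2h2be, Hist2h4, Hist1h4a, Hist1h4h and Hist1h4i were named after their values were seen. Python 3.11.15, numpy 2.4.6, pandas 2.3.3, scipy 1.17.1 and matplotlib 3.10.9 were used, and the ratios were tested on simulated data. Alternatives were other pseudocounts, filters, limits, 5 scalings, sums without the most abundant gene, medians, and, chosen after seeing the data, the more unique genes alone and sums weighted by reads.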

Additional observations from a re-analysis of the deposited data

How the results depend on the processing

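The direction of the summed level was the same as reported for each of the 5 classes, for the whole group and for Hist1, Hist3 and Hist4 under each scaling and each way of summing that was run, and the Hist2 sum was the exception. Its log2 ratio was 0.11 with median centring, 0.11 with the upper quartile, 0.11 with the trimmed mean, 0.10 with quantile normalization, 0.11 with equal totals and 0.14 with the more unique genes alone, and these scalings move the median of all genes by about 0.11. The H2B sum was near 0 under the scalings (-0.025 to -0.014) and -0.51 without Hist2h2bb. The H4 sum was at -0.735 to -0.703 under the scalings. The median of the H4 genes was -1.01 as deposited, just past the 2-fold limit. Hist1h4b, the gene at that median, was at -0.888 to -0.830 under the scalings, within the limit. The median of all expressed histone genes ranged from -0.63 to -0.43. The number of histone genes 2-fold lower fell short of the reported 11 in most settings. It was 7 with a pseudocount of 5 (0.15% of all genes) and 4 with median centring, the upper quartile, the trimmed mean or equal totals. It was 3 with quantile normalization (0.229% of all genes), 5 among the more unique genes and 32 at a limit of 1.5-fold (3.60% of all genes at that limit). Under the 4 scalings with 4 calls, 27 of all 11423 expressed genes were called (0.236%). Hist1h4m, Hist4h4 and Hist1h4n were 2-fold lower under all 5 scalings and Hist1h2ap under 4, while Hist1h4f, Hist1h4c, Hist1h4j, Hist1h4b, Hist1h2bk, Hist1h3h and Hist1h3i lay within the limit there. No histone gene was 2-fold higher in any setting. No paired analysis was possible because KO and WT are a single library each, and no library could be left out. Depth limits Hist1h1t, Hist1h2aa, Hist1h2ba, Hist3h2ba and Hist3h2bb-ps, each with under 50 estimated reads per library.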
